A study of Mus musculus with 192 samples.

Results

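The genes described here are 6 immediate early genes of the mouse, Egr1, Arc, Fos, Jun, Ier2 and Dusp1. They were taken by gene symbol from the annotation of the array platform, and together they held 8 of the 20847 rows of the value table. Jun had 3 rows and each of the others had 1. After rows of the same symbol were averaged and rows with many missing values were left out, 15608 genes or unnamed rows were tested, and all 6 members were among them.

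Immediate early genes are transcribed within minutes of a stimulus without new protein synthesis. In neurons the stimulus is synaptic activity, which raises calcium and cAMP and drives transcription through CREB, SRF with its Elk partners, and MEF2 factors. Some of the products are transcription factors for later genes, while others act directly at the synapse or switch the signal off. Egr1 and Arc are also known for the level that ongoing activity maintains in the forebrain of undisturbed animals, whereas Fos is usually low at rest.

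The study cut a section of mouse brain into small cubes, called voxels, and compared RNA of each voxel with RNA of whole mouse brain on 2-colour arrays. A position combines the letter of its row in the cutting grid (A-G) with the number of its column, 1 to 11. There were 68 positions and 192 arrays. All voxel and whole brain RNA came from C57BL/6 males of postnatal day 56, housed under a day and night light cycle, and each brain was taken out immediately under isoflurane. No group was stimulated or treated according to the sample labels, so the groups are positions in the section. There were 3 independently harvested datasets of 59, 68 and 65 arrays. Voxel RNA carried Cy3 in datasets 1 and 3 and Cy5 in dataset 2. The labels call the voxel RNA pooled and do not say how many animals entered a pool, so the dataset was the replicate throughout. A value in each dataset existed for 56 positions, and in 2 datasets for the other 12. The values are log2 ratios that had been centred gene by gene, so they compare positions for 1 gene and say nothing of its absolute level or of its level against another gene. Which channel was the numerator is not given in the sources used here. A positive value is read as more RNA in the voxel, which is likely from the order in which the design names the samples. In bulk RNA of a voxel, fewer cells that express a gene and less RNA per cell cannot be told apart.

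Arrays and libraries set limits on some values. Within a dataset, 2 arrays correlated as low as -0.57 over all rows, and 0.676% of such pairs lay under -0.3. The dyes are stated per array and positions of a brain can oppose each other, so the direction was kept. Arrays G8, G3 and G6 of dataset 3 had 41.5%, 20.4% and 15.1% of values missing or at the lowest value of the table, and they are left out where named. In row D of dataset 2, the 6 arrays at columns 1-3 and 5-7 went against their labels for Egr1. Their values had r = -0.99 with the mean of the other datasets at those positions, and r = 0.99 when their column order was reversed. For Arc the same r values were -0.72 and 0.87, for Jun -0.70 and 0.62, and for Ier2 -0.30 and 0.15. Fos gave -0.34 and -0.48, and Dusp1 went the other way with 0.65 and -0.57. Over 7550 genes that are no members, r with the mean of datasets 1 and 3 averaged 0.04 for the columns as labelled and 0.18 for the reversed order, and it was higher when reversed for 5 of the 6 arrays. It averaged 0.14 for the other 50 arrays of dataset 2 at positions present in every dataset. Whether the order or the sign of these arrays is at fault was not tested. They were singled out from values of these data, those of Egr1 and Arc included. Values of these genes without them are therefore given as a description, and a larger F or a smaller p without them supports nothing.

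Egr1 and Arc differed among positions and the other 4 genes did not pass the test. In a moderated F test over the 68 positions, with dataset as a block and Benjamini-Hochberg adjustment over all 15608 genes, 2 of the 6 members were called at 0.05, where 4.92% of all genes were called. Egr1, a zinc finger transcription factor, had F = 7.53 (adjusted p = 3.94e-19), rank 5 among the 8447 genes with a symbol. Arc, a synaptic protein that promotes removal of AMPA receptors from the membrane, had F = 5.78 (adjusted p = 7.21e-15), rank 27. The median F of all genes was 1.04. Ier2 came next with F = 1.72 (adjusted p = 0.0781), followed by Jun with 1.40 (0.387), Dusp1 with 1.39 (0.397) and Fos with 1.06 (0.837). Without the 6 doubted arrays of row D, a choice that these 2 genes' own values entered, the F of Egr1 was 13.1 and that of Arc 7.31. Ier2 passed in 4 other settings (limma). Its F was 2.47 with quantile normalization (adjusted p = 0.000275), 1.75 with rows measured on every array (0.0415) and 3.34 with array weights (1.04e-07). It was 2.02 (0.0115) without arrays G3, G6 and G8 of dataset 3, which were chosen after the data were seen.

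**Figure D1:**
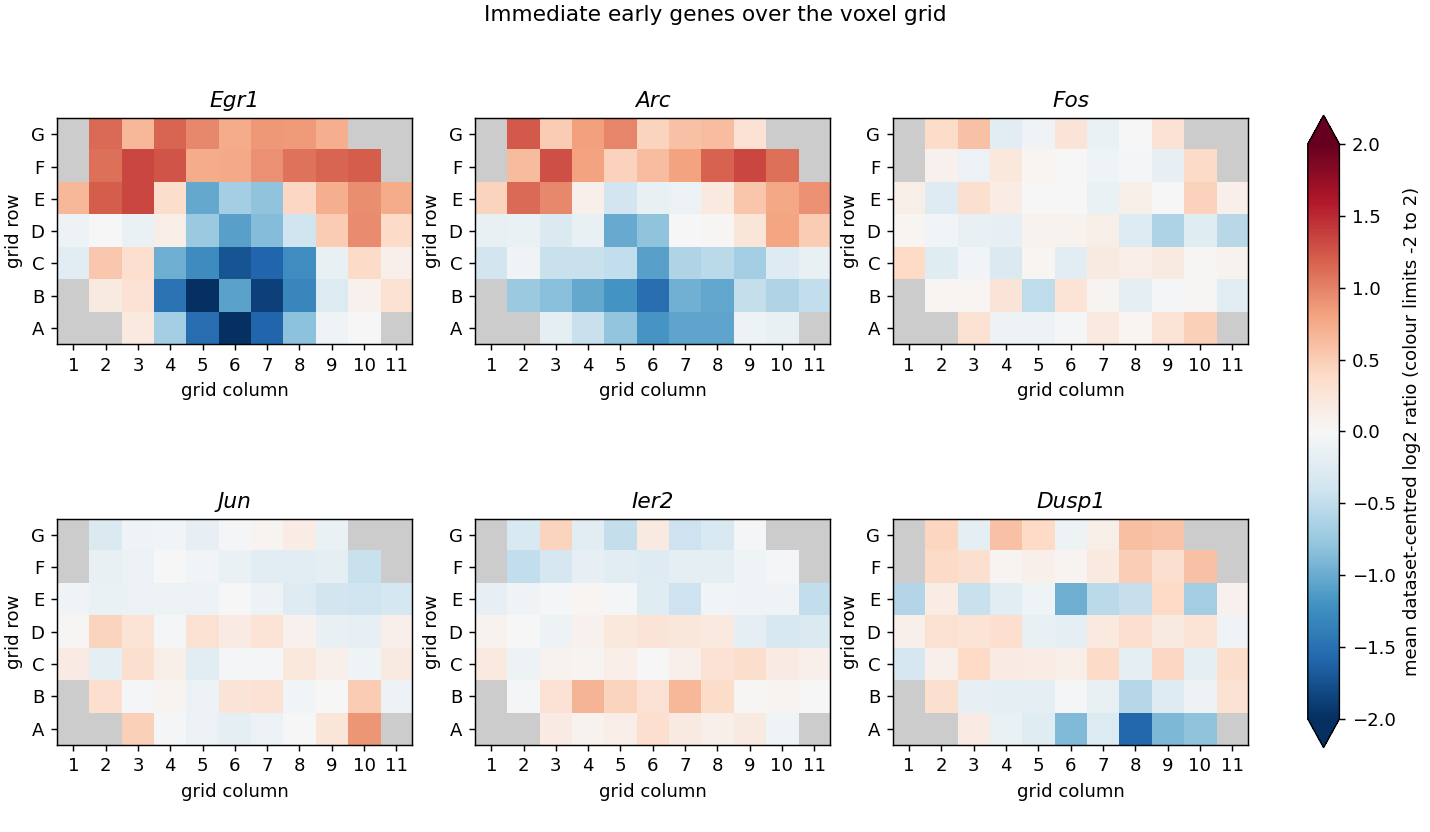
Mean level at each of the 68 grid positions for the 6 genes, as dataset-centred log2 ratio (colour, limits -2 to 2), with grid column on the horizontal and grid row on the vertical axis. Means in row D include the doubted arrays of dataset 2. Grey cells are positions that were not measured; Egr1 and Arc are high in rows F and G and low around columns 5-7 of rows A to C, with Egr1 reaching -2.79 at A6, while the other 4 maps span at most 2.18 log2 units.

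Levels are given below as dataset-centred log2 ratios, that is, after subtracting for each gene and dataset its mean over the 56 positions present in all 3 datasets. This mattered for Egr1 and Arc. Their means over these positions were -0.18, 0.16 and -0.79 for Egr1 and -0.03, 0.51 and -0.70 for Arc in datasets 1, 2 and 3. The range between datasets was 0.96 for Egr1 and 1.21 for Arc, against a median of 0.38 over all genes, and 5.75% and 2.42% of all genes had a larger range. The datasets with voxel RNA in Cy3 were the lower ones for both genes. Fos and Jun differed between datasets by only 0.10 and 0.07, Ier2 by 0.33 and Dusp1 by 0.58. Dataset is at once harvest and, in part, dye, and these cannot be told apart.

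Among the transcription factors, Egr1 had the widest map of the 6 genes, with 4.13 log2 units, or 17.6-fold, between its highest and lowest position. The highest positions were F3 with 1.34 ± 0.35 (SD, n = 3 datasets), E3 with 1.33 ± 0.12 (n = 2), F4 with 1.25 ± 0.52 (n = 3) and E2 with 1.21 ± 0.08 (n = 3). These neighbours in the order differed by less than the SD of F3 and F4. The lowest was A6, at -1.99, -1.82 and -4.57 in datasets 1, 2 and 3, a mean of -2.79 ± 1.54. The value of dataset 3 was the lowest of any array for this gene. With all arrays used, A6 was followed by B5 with -2.07 ± 0.58 (n = 2), B7 with -1.86 ± 0.51 (n = 3) and C6 with -1.73 ± 0.33 (n = 3). D6 read -1.75, 0.51 and -2.02 in datasets 1, 2 and 3, and its mean is raised by the doubted array of dataset 2. Of the 56 positions measured in all datasets, 24 were above 0 in each dataset and 13 below 0 in each.

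Arc spanned 2.86 log2 units, or 7.24-fold. Its highest positions were F9 with 1.34 ± 0.38 (n = 3), F3 with 1.29 ± 0.20 (n = 3) and G2 with 1.23 ± 0.17 (n = 2), which did not differ beyond their SDs. With all arrays used, the lowest were B6, at -0.64, -2.16 and -1.75 in the 3 datasets, and B5 and A6 with means of -1.19 and -1.19. D5 read -1.44, -0.19 and -1.37 in datasets 1, 2 and 3, and D6 read -0.76, 0.28 and -1.93. At both, the value of dataset 2 is that of a doubted array and raises the mean. Like Egr1, Arc was low at the middle of rows A and B and high in row F. Of the same 56 positions, 20 were above 0 in every dataset and 17 below 0 in every dataset.

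By grid row, the mean of Egr1 over the columns measured in each row stepped up from A to F in every dataset when all arrays were used. Row means were -0.93 ± 0.35 in A, -0.67 ± 0.30 in B, -0.49 ± 0.11 in C, -0.13 ± 0.10 in D, 0.31 ± 0.27 in E, 1.07 ± 0.29 in F and 0.87 ± 0.17 in G (SD, n = 3 datasets). The widest step was from E to F, 0.76 ± 0.09. The step from C to D, 0.36 ± 0.20, and the smaller step from B to C, 0.18 ± 0.22, also had 1 sign in all 3 datasets, although the latter was within its SD. From F to G the step was -0.19 ± 0.41 and negative in 2 of 3 datasets. Arc went from -0.61 ± 0.11 in A to -0.87 ± 0.10 in B, a step down in 3 of 3 datasets, and then up in each dataset through -0.46, -0.09 and 0.38 to 0.92 ± 0.36 in F. Its lowest row was therefore B and that of Egr1 was A. Rows did not share all columns: A to G held 8, 10, 11, 11, 11, 9 and 8 positions. In dataset 1, row B lacked B2 to B5 and B9. The part of column coverage in these steps was not tested. Without the doubted arrays, row D of dataset 2 kept no array of columns 1-3 and 5-7. Its mean was then 0.41 for Egr1 and 0.18 for Arc, so that row D averaged 0.03 ± 0.34 and 0.04 ± 0.13 over the datasets, and in dataset 2 Egr1 did not step up from D to E, where row E read 0.40.

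**Figure D2:**
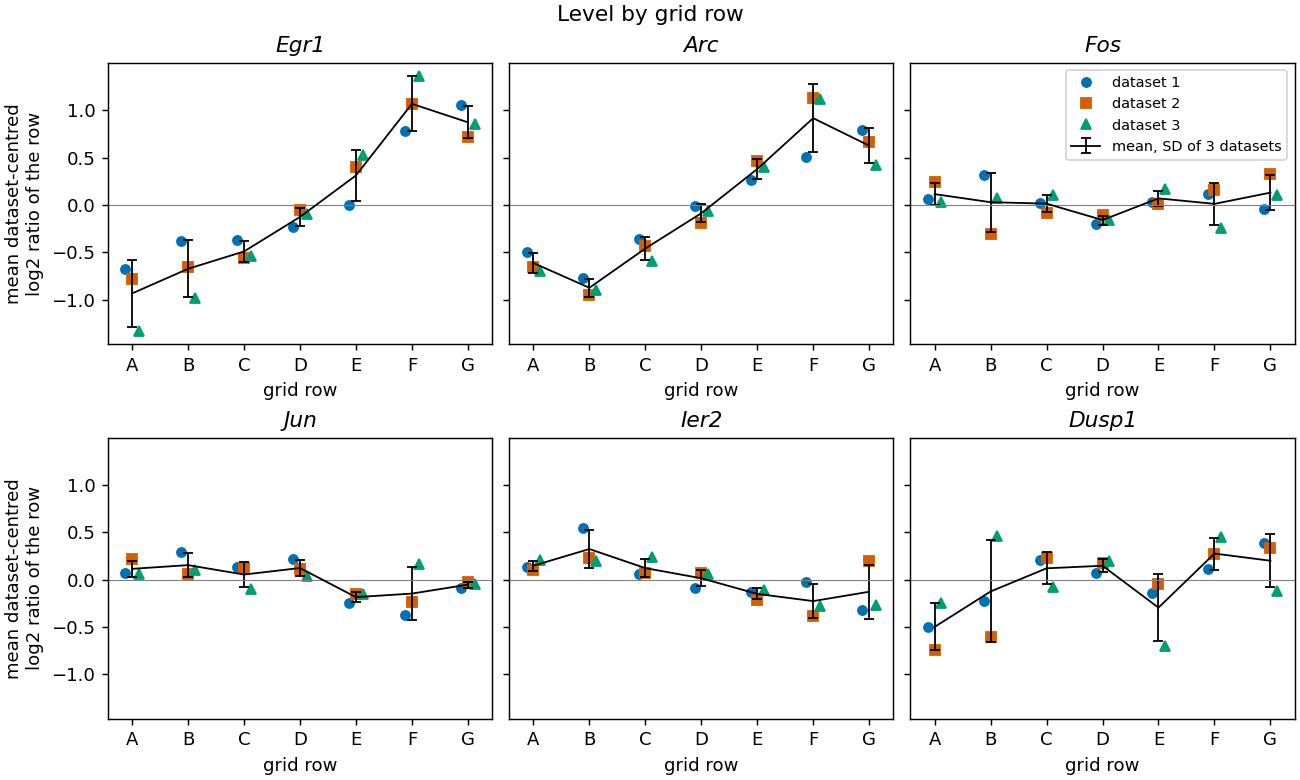
Mean dataset-centred log2 ratio of each grid row, A to G, for the 6 genes. Coloured points are the 3 datasets and black lines join their means with SD bars; Egr1 goes from -0.93 in row A to 1.07 in row F and Arc from -0.87 in row B to 0.92 in row F, while Ier2 goes from 0.32 in row B to -0.23 in row F.

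Zones of the grid were then compared with 1 difference of zone means per dataset, tested against 0 with limma over all 15608 genes. In rows A-B, with 11, 18 and 18 arrays, Egr1 ran from -1.99 over a median of -0.21 to 0.51 in dataset 1. In dataset 2 it ran from -1.99 over -0.63 to 0.58, and in dataset 3 from -4.57 over -1.12 to 0.01. In rows F-G, with 17, 17 and 14 arrays, the lowest, median and highest were 0.28, 0.99 and 1.25 in dataset 1, -0.09, 0.95 and 1.49 in dataset 2, and -0.50, 1.22 and 1.81 in dataset 3. The medians of rows F-G lay above the highest value of rows A-B in each dataset, although single arrays of the 2 zones overlapped. The difference of rows A-B from rows F-G was -1.45, -1.61 and -2.28, a mean of -1.78 ± 0.44 (n = 3 datasets), or 3.44-fold lower, with an adjusted p of 0.0473 (limma).

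Arc in rows A-B ran from -1.34 over a median of -0.81 to 0.58 in dataset 1, from -2.16 over -0.72 to 0.47 in dataset 2, and from -1.75 over -0.90 to 0.29 in dataset 3. In rows F-G it ran from -0.55 over 0.80 to 1.11, from 0.10 over 1.04 to 1.73, and from -1.09 over 0.97 to 1.40. Here too the median of rows F-G exceeded all values of rows A-B in each dataset. The differences were -1.25, -1.73 and -1.63, a mean of -1.54 ± 0.25, or 2.90-fold lower (adjusted p = 0.0349, limma). Egr1 and Arc were 2 of 13 genes called lower in rows A-B, which is 0.0833% of all genes; 17 genes, or 0.109%, were called in either direction, and 1409 had an unadjusted p under 0.05.

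These calls were near the threshold. Without dataset 1 the adjusted p was 0.0767 for both genes and without dataset 2 it was 0.577 for both, while without dataset 3 it was 0.0429 for Egr1 and 0.0665 for Arc (limma). The 3 means without 1 dataset each stayed between -1.94 and -1.52 for Egr1 and between -1.68 and -1.43 for Arc. Without array A6 of dataset 3, the array with the lowest Egr1 value, the difference of Egr1 was -1.71 (adjusted p = 0.0307).

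Rows C-E were lower than rows F-G for Egr1, by -1.11, -0.97 and -1.18 in the 3 datasets. The mean was -1.08 ± 0.11 (adjusted p = 0.0421, limma). Of all genes, 6, or 0.0384%, were called in this comparison, and Egr1 was 1 of 2 (0.0128%) called lower in rows C-E. The call was lost without the doubted row D arrays of dataset 2 (-1.06, adjusted p = 0.0745), without dataset 2 (-1.14, 0.319) and without dataset 3 (-1.04, 0.104). For Arc the difference was -0.84 ± 0.15 with an adjusted p of 0.0875, and 0.0481 without arrays G3, G6 and G8 of dataset 3. Between rows C-E and A-B the differences were 0.70 ± 0.38 for Egr1 (adjusted p = 0.444) and 0.69 ± 0.10 for Arc (0.293), positive in 3 of 3 datasets for both, as 32.9% of all genes had 1 sign in every dataset; 1 gene, 0.00641%, was called there. Without the doubted arrays these differences were 0.72 and 0.73 (adjusted p = 0.445 and 0.313). Row G against row F gave -0.19 ± 0.48 for Egr1 and -0.35 ± 0.54 for Arc, and 0 genes were called (limma; 1315 with an unadjusted p under 0.05).

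**Figure D3:**
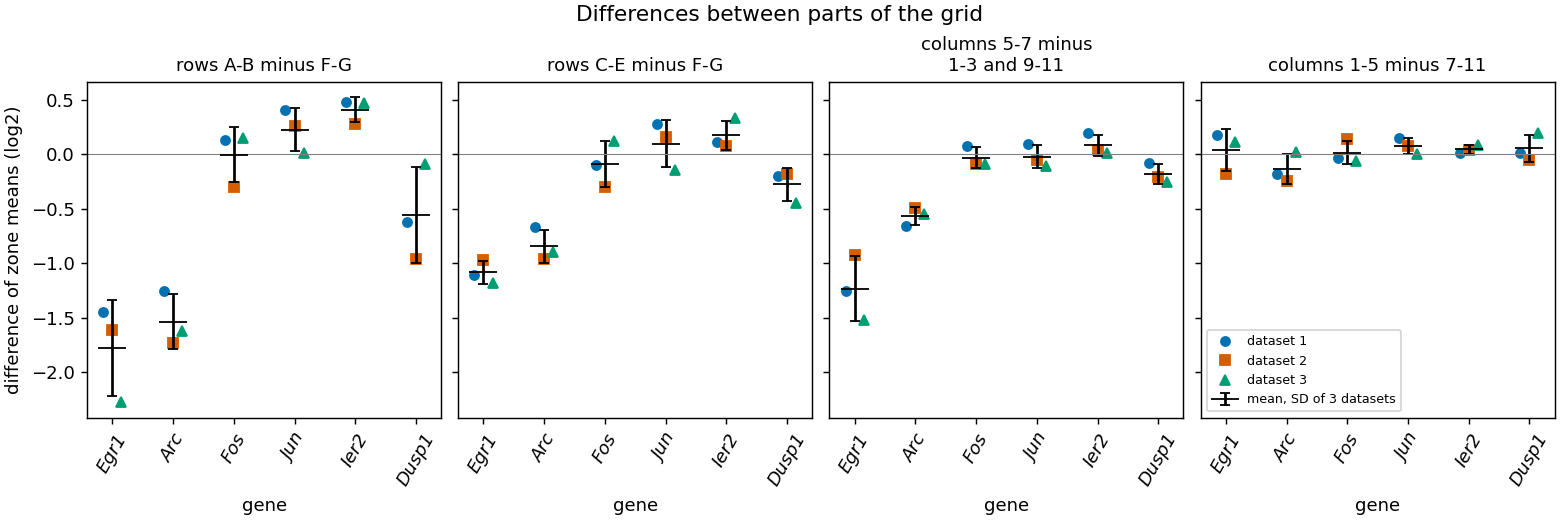
Differences of zone means (log2) for the 6 genes in 4 comparisons of the grid, with the 3 datasets as coloured points and their mean and SD in black. Egr1 and Arc lie at -1.78 and -1.54 for rows A-B minus F-G, and every gene lies within 0.25 of 0 for columns 1-5 minus 7-11.

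Across the columns, Egr1 was lowest at the middle. By distance from column 6 its means were -0.84 ± 0.32 at column 6, -0.69 ± 0.22 at 1 column away, -0.07 ± 0.04 at 2, 0.48 ± 0.08 at 3, 0.65 ± 0.04 at 4 and 0.27 ± 0.29 at 5. The steps up to 4 columns away were positive in all 3 datasets and the last step was negative in all 3. Arc had a shallower profile of -0.53, -0.27, -0.02, 0.19, 0.31 and 0.10. Distances did not share all rows, since no position at 5 columns away lay in rows A, F or G. The part of row coverage in these profiles was not tested. In columns 5-7 Egr1 ran from -1.99 over a median of -1.20 to 1.20 in dataset 1, from -1.99 over -0.63 to 0.95 in dataset 2 and from -4.57 over -1.62 to 1.23 in dataset 3. In columns 1-3 and 9-11 the medians were 0.53, 0.57 and 0.42, and the zones overlapped in each dataset. Middle minus outer columns gave -1.26, -0.93 and -1.52, a mean of -1.24 ± 0.30 (adjusted p = 0.0748, limma) for Egr1 and -0.57 ± 0.08 (0.0872) for Arc. No gene was called in this comparison (0%), though 2054 had an unadjusted p under 0.05. Egr1 passed without dataset 1 (-1.22, adjusted p = 0.0479) and without dataset 2 (-1.39, 0.00134). Without the 6 doubted arrays the differences were -1.36 for Egr1 (0.0153) and -0.64 for Arc (0.0390), with 46 of all genes called; these arrays were picked in part by their Egr1 and Arc values at these very columns, so this is no independent test. The column profile then ran from -0.90 ± 0.26 at column 6 to 0.71 ± 0.07 at 4 columns away for Egr1 and from -0.57 ± 0.20 to 0.35 ± 0.07 for Arc.

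The dip of Egr1 at the middle columns was present in rows A to E and small in rows F and G. Within a row, middle minus outer columns was -2.06 ± 0.45 in A, -1.63 ± 0.85 in B, -1.67 ± 0.29 in C and -1.74 ± 0.44 in E. Row D gave -1.97, 0.98 and -2.49 in datasets 1, 2 and 3, the odd value being that of the doubted arrays. In F it was -0.42 ± 0.17, negative in 3 of 3 datasets. Row G gave -0.06, -0.38 and 0.82 in datasets 1, 2 and 3, a mean of 0.13 ± 0.62. Its outer columns in dataset 3 were only G3 at 1.06 and G9 at -0.50. In datasets 1 and 2, G9 read 1.25 and 1.42. Array G9 of dataset 3 also enters the next test and row G against row F. The test of the difference between rows F-G and rows C-E in middle minus outer columns gave 1.56, 0.35 and 2.08. The mean was 1.33 ± 0.89 (adjusted p = 0.947, limma), and 0 genes were called (736 with an unadjusted p under 0.05). For Arc it was 0.47 ± 0.47 (0.947). Without the doubted arrays the means were 1.64 (0.584) and 0.64 (0.826). Within rows C-E, the outermost columns, 1-2 and 10-11, exceeded columns 3-4 and 8-9 by 0.43 ± 0.37 for Egr1 (0.302) and 0.36 ± 0.14 for Arc (0.212), each positive in 3 of 3 datasets and not called. Without the doubted arrays these were 0.50 (0.214) and 0.42 (0.179). There 36.7% of all genes had 1 sign in every dataset and 0.192% were called.

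**Figure D4:**
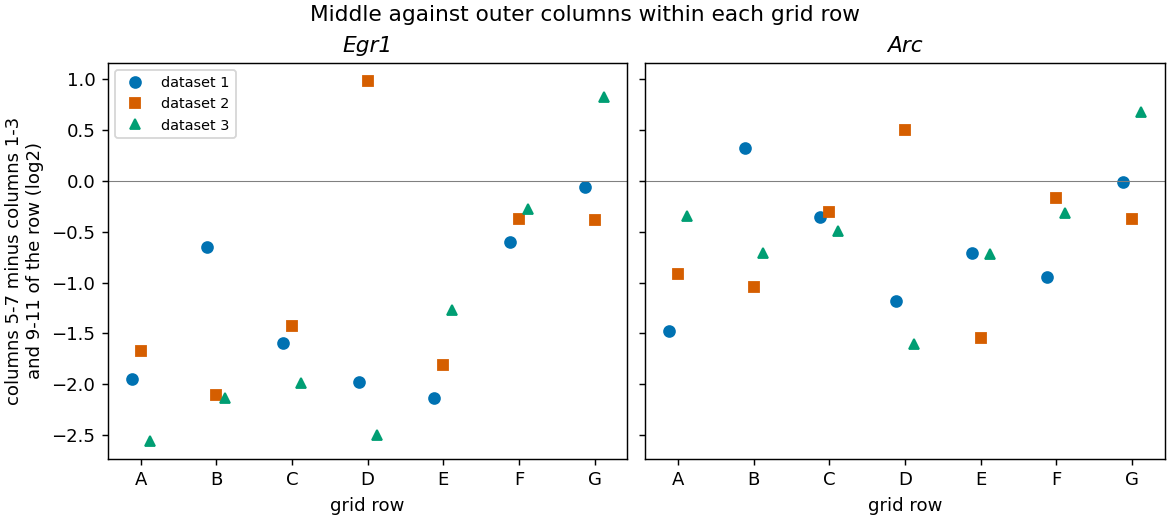
Columns 5-7 minus columns 1-3 and 9-11 within each grid row (log2) for Egr1 and Arc, with the 3 datasets as points. For Egr1 rows A, B, C and E lie below 0 in every dataset and row D of dataset 2 stands at 0.98. Row G lies at -0.06, -0.38 and 0.82 in datasets 1, 2 and 3.

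No difference between the 2 sides of the section was detected for these genes. Columns 1-5 minus their mirror positions in columns 7-11 gave 0.04 ± 0.19 for Egr1 (adjusted p = 0.977) and -0.13 ± 0.14 for Arc (0.974, limma). No gene was called (0%; 497 with an unadjusted p under 0.05). As a description over mirror pairs that share a dataset, Egr1 had r = 0.95, 0.60 and 0.92 in datasets 1, 2 and 3, over 22, 29 and 27 pairs, and Arc had 0.64, 0.65 and 0.67. Between datasets, the maps of Egr1 correlated at 0.59, 0.80 and 0.64 over 56 positions and those of Arc at 0.57, 0.64 and 0.59. Without the doubted arrays the mirror r of dataset 2 was 0.82 for Egr1 and 0.80 for Arc over 25 pairs. The maps of dataset 2 then had r = 0.81 and 0.84 with those of datasets 1 and 3 for Egr1 and 0.67 and 0.72 for Arc, over 50 positions. The columns 1-5 minus 7-11 differences were then 0.12 and -0.08 (adjusted p = 0.989 for both). For the other 4 genes the between-dataset r ran from -0.16 to 0.38 with all arrays.

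Egr1 and Arc followed each other across the section. Over the 56 positions their means had r = 0.87 and Spearman's rho = 0.92, and among all named genes Egr1 was the closest to Arc. Within datasets r was 0.74, 0.86 and 0.83. After the mean of each position was removed, the remaining deviations of the arrays still had r = 0.51, 0.74 and 0.64. Without the doubted arrays the r over position means was 0.88, that within dataset 2 was 0.85, and that of the deviations in dataset 2 was 0.55. The position means that were removed held the doubted arrays, so the deviations of datasets 1 and 3 at those positions were shifted as well. Their r of 0.51 and 0.64 was not recomputed without these arrays. These points share arrays, so no test is given. The difference Egr1 minus Arc was nevertheless patterned. It was highest at B3 with 1.12 ± 0.14 (n = 2), B2 with 0.93 ± 0.10 (n = 2), B11 with 0.80 ± 0.83 (n = 3) and C3 with 0.78 ± 0.39 (n = 3), where Egr1 was above 0 and Arc below 0. With all arrays used, it was lowest at A6 with -1.61 ± 1.43 (n = 3), C7 with -0.996 ± 0.306 (n = 2) and B7 with -0.91 ± 0.38 (n = 3). At D7 the difference was -1.68, 0.40 and -1.33 in datasets 1, 2 and 3, and the doubted array of dataset 2 raises its mean. On this scale of differences between centred ratios, the mean was above 0 at each measured outer position of rows B and C (columns 1-3 and 9-11) and below 0 at their middle positions (columns 5-7), with the exception of B6 at 0.44 ± 0.54 (n = 3).

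**Figure D5:**
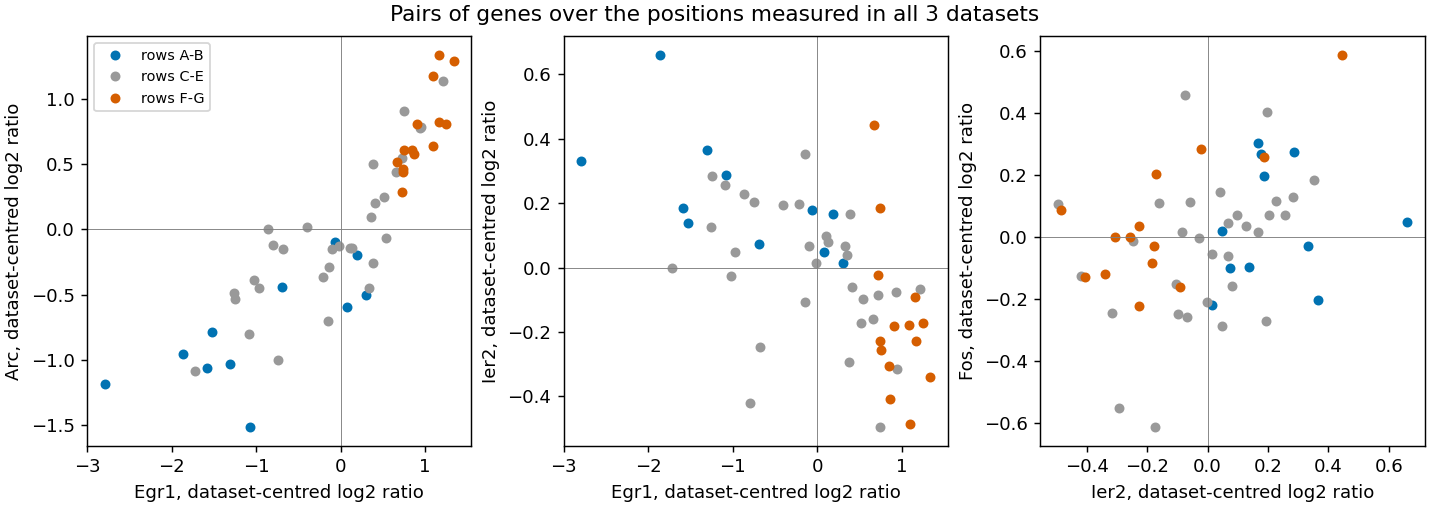
Position means of Arc against Egr1, Ier2 against Egr1 and Fos against Ier2, all as dataset-centred log2 ratio, over the 56 positions measured in all 3 datasets, coloured by rows A-B, C-E and F-G. Arc rises with Egr1 (r = 0.87), Ier2 runs against Egr1 (r = -0.61), and Fos is only weakly related to Ier2 (r = 0.36).

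The genes with maps most like Egr1 were Nrgn, a calmodulin-binding protein of the postsynapse (r = 0.94 over 56 positions), Rcor3, a corepressor subunit (0.93), and Chn1, a GTPase-activating protein for Rac (0.93). For Arc they were Egr1, Rcor3 (0.87) and Vxn (0.86), the latter a marker of cortical neurons. Markers of other cell types were read beside these maps. Of 12 markers of cortical projection neurons, Fezf2 and Vxn were measured, and their mean level had r = 0.80 with Egr1 and 0.86 with Arc over positions. Vxn was also picked above by its r with Arc, so the value for Arc is no separate support. The mean level of Fezf2 and Vxn was -0.82 ± 0.33 in rows A-B, from -1.16 to -0.50 over the datasets. In rows F-G it was 0.95 ± 0.10, from 0.85 to 1.06. The 2 of 11 hypothalamic markers measured, Cartpt and Ndn, were opposite, at 0.71 ± 0.04 in rows A-B and -0.33 ± 0.12 in rows F-G, with r = -0.58 with Egr1. For 5 of 18 striatal markers r with Egr1 was 0.17, for 4 of 8 thalamic markers -0.38, for 4 of 7 astrocyte markers -0.53 and for 4 of 12 oligodendrocyte markers -0.19. The part of cell composition in the differences of Egr1 and Arc was not tested. The spread of ratios on an array, as median absolute deviation, was 0.303 ± 0.043 in rows A-B and 0.242 ± 0.028 in rows F-G, and its part was not tested either; over arrays it had r = 0.03, 0.00 and -0.28 with Egr1 and -0.02, -0.04 and -0.41 with Arc in datasets 1, 2 and 3.

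Fos and Jun encode the subunits of the AP-1 transcription factor. Fos levels ran over 1.20 log2 units, from -0.61 ± 0.23 at D9 to 0.59 ± 0.95 at G3 (n = 3), where the 3 datasets read 0.12, 1.68 and -0.03. The high mean at G3 was that of 1 array, and at C1 likewise the datasets read 0.00, 1.14 and 0.07. Rows A-B minus F-G was 0.13, -0.30 and 0.15 in the 3 datasets, a mean of 0.00 ± 0.25 (adjusted p = 0.995, limma). Middle minus outer columns was -0.03 ± 0.10 (0.867). The lowest Fos position, D9, was below 0 in all 3 datasets at -0.87, -0.57 and -0.41, as was D11 at -0.99, -0.15 and -0.53. Maps of Fos in different datasets had r of 0.00, 0.24 and -0.12, and with Egr1 and Arc its position means had r of 0.00 and -0.08.

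Jun is the mean of 3 table rows that did not follow each other, with r between -0.19 and -0.08 over arrays. By single row, the F was 0.952, 1.08 and 1.07, and rows A-B minus F-G was -0.06 ± 0.32, 0.61 ± 0.79 and 0.19 ± 0.25. The mean of the rows gave 0.41, 0.26 and 0.01, or 0.23 ± 0.20 (adjusted p = 0.639, limma). Its highest position was A10 with 1.53 and 0.23 in datasets 2 and 3, and the next was B10 with 0.995, 0.352 and 0.178. At the other end lay F10 with -0.68 and -0.20 in datasets 1 and 2, and E9 with -0.35, -0.55 and -0.21. Since the rows disagree, these values have less weight than those of the genes with 1 row.

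Ier2, a nuclear protein of the early response, had a shallow map that did not pass the F test. Its position means ran against those of Egr1 and Arc. Row means were 0.15 ± 0.05 in A, 0.32 ± 0.20 in B, 0.12 ± 0.10 in C, 0.01 ± 0.08 in D, -0.15 ± 0.06 in E, -0.23 ± 0.18 in F and -0.13 ± 0.28 in G. The highest positions were B4 at 0.67 and 0.67 in datasets 2 and 3, and B7 at 1.46, 0.44 and 0.09; the lowest were E11 at -0.46, -0.59 and -0.44 and F2 at -0.30, -0.78 and -0.37. Rows A-B minus F-G was 0.48, 0.28 and 0.47, a mean of 0.41 ± 0.12, positive in 3 of 3 datasets, with an unadjusted p of 0.0117 and an adjusted p of 0.396 (limma). Of all genes, 32.5% had 1 sign in all 3 datasets in this comparison. Single arrays overlapped widely, since rows F-G of dataset 2 reached 1.77 at G3 and rows A-B of that dataset reached 0.67. Over position means Ier2 had r = -0.61 with Egr1 and -0.68 with Arc. Within datasets 1, 2 and 3 these were -0.49, -0.39 and -0.60 with Egr1 and -0.52, -0.43 and -0.67 with Arc. The maps of Ier2 in different datasets had r of only 0.17, 0.38 and 0.06. Its closest maps were those of Pgm1, a phosphoglucomutase (0.75), Cirbp, a cold-inducible RNA-binding protein (0.73), and Rcan3, a regulator of calcineurin (0.73). By dataset, these r values were 0.63, 0.73 and 0.67 for Pgm1, 0.21, 0.79 and 0.49 for Cirbp, and 0.48, 0.65 and 0.27 for Rcan3.

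Ier2 and Fos deviated together from array to array. With position means removed their r was 0.46, 0.60 and 0.55 in the 3 datasets, against -0.14, -0.37 and -0.17 for Ier2 with Egr1. Without the doubted arrays the values in dataset 2 were 0.61 and -0.49. Those of datasets 1 and 3, whose position means also held these arrays, were not recomputed. Both were at their highest of dataset 2 on array G3, at 1.68 for Fos and 1.77 for Ier2, while Egr1 and Arc read -0.09 and 0.10 there. The spread of ratios on the array moved with both genes in datasets 2 and 3, at r = 0.58 and 0.57 for Fos and 0.44 and 0.34 for Ier2, and not in dataset 1, at 0.02 and -0.02. Its part in the shared deviations was not tested.

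Dusp1 encodes a phosphatase that inactivates MAP kinases and so acts as a brake on the pathway that induces the other genes. It could be measured on 62 of the 65 arrays of dataset 3, the values at A10, G4 and G8 being missing or at the lowest value of the table. Levels ran over 2.18 log2 units. The lowest position was A8, at -0.54 and -2.60 in datasets 2 and 3, followed by E6 at -1.002, -0.522 and -1.383 and A9 at -0.41, -0.80 and -1.49. The highest were G8 at 0.66 and 0.56 and F10 at 0.29 and 0.90 in datasets 1 and 2. Rows A-B minus F-G was -0.62, -0.96 and -0.09, a mean of -0.56 ± 0.44, negative in 3 of 3 datasets, with an unadjusted p of 0.0208 and an adjusted p of 0.457 (limma). With Egr1 it had r = 0.44 over position means, but only 0.17, 0.41 and 0.08 within the 3 datasets. The closest maps were those of Nptn, a synaptic adhesion protein (0.57), Bzw1 (0.56) and Kifap3, a kinesin-associated protein (0.56). Their r within datasets 1, 2 and 3 was lower, at 0.34, 0.44 and 0.24 for Nptn and 0.33, 0.39 and 0.14 for Bzw1. For Kifap3 it was 0.15, 0.04 and 0.52.

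Promoter sequences were at hand for 3 of the 5 members looked up, Fos, Jun and Dusp1, in a RefSeq table of GRCm38.p6 with 250 bases before and 50 after the start of a gene. Stretches of Fos and Dusp1 are printed because they hold letters of the cAMP response element, through which activity reaches this class of gene, in 2 members whose maps did not pass the test. The full element was found in Dusp1 only, and Fos had the shorter TGACG, which is common among promoters. Capitals mark matches to TGACG, to the full element TGACGTCA, which contains TGACG, and to TATAAA, 5′ to 3′ on the strand of the gene. The first lies at chr12:85473741-85473882 on the plus strand and the second at chr17:26508588-26508683 on the minus strand.
Fos: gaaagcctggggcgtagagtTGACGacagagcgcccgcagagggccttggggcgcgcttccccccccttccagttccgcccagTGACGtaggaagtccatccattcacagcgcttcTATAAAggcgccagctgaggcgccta
Dusp1: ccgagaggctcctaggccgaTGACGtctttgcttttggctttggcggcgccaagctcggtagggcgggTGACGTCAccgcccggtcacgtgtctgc
In Fos, TGACG lay at -129 to -125 and -66 to -62 and TATAAA at -33 to -28 from the start. In Dusp1, TGACG lay at -191 to -187 and the full TGACGTCA at -143 to -136. Searched on both strands, TGACGTCA was present in 1.79% of the 32851 promoters of the table, TGACG in 20.8% and TATAAA in 13.6%. The AP-1 site TGANTCA (7.81% of promoters), the EGR site GCGNGGGCG (5.55%) and the CArG box of SRF (1.63%) were searched too and not found in these 3 windows, and none of the 6 motifs was found in that of Jun.

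The wider activity program was read from lists of 123 genes, of which 59 were measured. By the F test 10 of these 59 were called, where 4.92% of all genes were called. In rows A-B against F-G 0 of the 59 were called (limma), 37 lay below 0, and their median was -0.08 against -0.02 for all genes. Of the other members of the AP-1 family, 6 of 11 were measured and 0 called. Of Egr2, Egr3, Egr4, Nab1 and Nab2, only the co-repressors Nab1 and Nab2 were measured and neither was called. None of the 3 NR4A receptors was among the genes tested. Among other early response genes 4 of 20 measured were called by F, namely Klf9 (F = 4.32), Sgk1 (3.13), Klf10 (2.19) and Zfp36l1 (2.12). Klf9 and Klf10 are zinc finger transcription factors, and they had -0.84 ± 0.07 and -0.76 ± 0.44 in rows A-B minus F-G (adjusted p = 0.103 and 0.303, limma).

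Sgk1, a kinase induced by glucocorticoids, was the 1 gene of these lists called in a zone test. It was lower in the outermost columns of rows C-E than in the next ones, by -0.79 ± 0.07 (adjusted p = 0.0436, limma). In that comparison 23 genes, or 0.147%, were called lower in the outermost columns. Among them were 3 of the 4 oligodendrocyte markers measured, and the median of these 4 was -1.21. Whether Sgk1 goes with them was not tested. Of the synaptic effectors, 1 of 3 measured was called by F, Homer1, a postsynaptic scaffold protein (F = 1.84, adjusted p = 0.0361), with -0.56 ± 0.27 in rows A-B minus F-G. Dusp3 and Dusp14 were 2 of 6 other dual specificity phosphatases called, with -0.71 ± 0.16 and -0.47 ± 0.20. Among upstream factors 3 of 9 were called, Mef2c (F = 3.43, -0.68 ± 0.29), Mef2a (2.99, -0.16 ± 0.12) and Camk4 (2.19, -0.43 ± 0.45), the last a kinase that activates CREB. None of 9 MAP kinases and their kinases and none of 4 partners of the Arc protein was called by F.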

How the data were processed

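Each array compared RNA of voxels with RNA of whole brain. The authors deposited log2 ratios in a table of 20847 rows, centred by row: 99.9% of row medians lay within 0.001 of 0. How arrays were hybridised, scanned and normalized is not given in the sources used here, and the labelling text of the labels also names a LiCl treatment that no sample label carries. The lowest value, -6.6439 (0.483% of entries), was treated as missing, beside 1.93% of entries that were blank. The median over rows measured on every array was subtracted from each array (shift at most 0.353). Control rows were left out, rows measured on under 80% of the arrays of any dataset too, and rows of 1 symbol were averaged.

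Positions were tested with a moderated F test (limma 3.58.1, R 4.3.3; dataset as a block), zones with lmFit and eBayes on 1 difference per dataset, n = 3. Adjustment was Benjamini-Hochberg over 15608 genes at 0.05. Correlations are Pearson's r. Tests were run on simulated data first. The number of arrays limits the precision.

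Datasets are separate harvests by the labels, so their number pairs arrays. Deviations from position means had a median r of 0.189, 0.260 and 0.252 within datasets 1, 2 and 3 and -0.123 between them. Subtracting position means lowers r between datasets by construction, and arrays of a dataset share their dye. These values therefore do not test the pairing. Genes named are the 6 members, the 3 named genes with the most similar map to each, and genes of the activity lists that passed a test. A few other names were chosen after their values were seen: the positions singled out, array A6, and arrays G3, G6, G8 and G9 of dataset 3. The 6 row D arrays of dataset 2 were chosen so in an earlier reading of these data. Members and lists were chosen with earlier results of these data known. Alternatives covered array scaling, the lowest value, extreme values, the filter, the block, array weights, positions, doubted arrays and datasets left out.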

Additional observations from a re-analysis of the deposited data

How the results depend on the processing

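Egr1 and Arc passed the F test under all 15 alternatives, with F from 4.08 to 13.1 and from 2.42 to 8.71. With array weights 5 of 6 members and 5102 of all genes passed (without weights 2 and 768), the sixth being Fos; the lowest count over all genes was 214, without replicate 2. The zone calls of Egr1 and Arc kept their direction and often lost or gained the threshold. For rows A-B minus F-G, 0 of 6 members were called with quantile normalization, with the lowest values kept, with no filter beyond 2 arrays a dataset and with no replicate block, and 0 to 1 when a dataset was left out. Over these and the other alternatives Egr1 stayed between -2.03 and -1.52 and Arc between -1.76 and -1.43, with adjusted p up to 0.577 and 0.837 (limma). Rows C-E minus F-G had 0 members called with the lowest values kept, with no filter, with no replicate block and without the 6 row D arrays, 0 to 1 with a dataset left out, and 2 with quantile normalization, with rows measured on every array and without arrays G3, G6 and G8 of dataset 3. Middle minus outer columns had 1 with quantile normalization and with values limited to within 3 of 0, 2 with rows measured on every array and without the row D arrays, and 0 to 1 with a dataset left out. With rows measured on every array, which tests fewer genes, 2 members were called in rows C-E minus A-B and 1 (Arc) in the outermost columns. Leaving out arrays G3, G6 and G8, or A6, of dataset 3 was chosen after seeing the data. The 6 row D arrays were picked in an earlier reading of these data, and Egr1 and Arc are among the genes that set them apart, so calls gained without them are no independent support. Over all genes, the counts called ran from 0 to 154 for rows A-B minus F-G (17 as reported), 0 to 50 for C-E minus F-G (6), 0 to 88 for C-E minus A-B (1), 0 to 201 for middle minus outer columns (0), 0 to 12 for G minus F (0) and 0 to 376 for the outermost columns (30). The replicate block, that is, pairing zones within a dataset, changed these calls: with no replicate block the adjusted p was 0.440 for Egr1 and 0.837 for Arc in rows A-B minus F-G. Tested row by row rather than by symbol, Egr1 had an adjusted p of 0.0524 and Arc of 0.0478 there. Causes other than the number of genes or arrays were not tested.

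The values that turned sign were not called under the settings in which they did so. For Egr1, columns 1-5 minus 7-11 was -0.0085 over positions in all datasets and -0.030 to 0.15 with a dataset left out. For Fos, rows A-B minus F-G was 0.0099 with no centring, 0.052 with quantile normalization, 0.0076 without G3, G6 and G8 of dataset 3 and -0.074 to 0.15 with a dataset left out. In columns 1-5 minus 7-11 it was -0.0072 with quantile normalization and -0.043 to 0.053 with a dataset left out. In middle minus outer columns it was 0.013 over positions in all datasets. In rows C-E minus F-G it was -0.20 to 0.017 with a dataset left out. In G minus F it was -0.0097 to 0.28 with a dataset left out. For Jun, middle minus outer columns in F-G minus that in C-E was 0.022 with no centring, 0.019 without G3, G6 and G8 of dataset 3 and -0.041 to 0.088 with a dataset left out. In G minus F it was -0.27 with the lowest values kept. In rows A-B minus F-G it was -0.059 with rows measured on every array. In rows C-E minus F-G it was -0.018 with rows measured on every array. In rows C-E minus A-B it was 0.040 with rows measured on every array. In middle minus outer columns it was 0.059 with rows measured on every array and -0.076 to 0.022 with a dataset left out. In the outermost minus the next columns it was -0.096 to 0.016 with a dataset left out. For Ier2, G minus F was -0.15 to 0.28 with a dataset left out. For Dusp1, middle minus outer columns in F-G minus that in C-E was 0.046 with quantile normalization, 0.042 over positions in all datasets and -0.13 to 0.066 with a dataset left out. In columns 1-5 minus 7-11 it was -0.017 to 0.11 with a dataset left out. In G minus F it was 0.24 without G3, G6 and G8 of dataset 3 and -0.27 to 0.25 with a dataset left out.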

Other observations

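Fos had close neighbours among genes that did not differ among positions. The maps most like it were those of Dph3, an enzyme factor of diphthamide synthesis (r = 0.88 over 56 positions), Alox12, a lipoxygenase (0.84), and Zfp598, a ubiquitin ligase of stalled ribosomes (0.84). Within datasets 1, 2 and 3 the r with Fos was 0.75, 0.96 and 0.90 for Dph3, 0.76, 0.94 and 0.83 for Alox12, and 0.83, 0.91 and 0.87 for Zfp598. The F values of the 3 genes were 0.815, 0.840 and 0.922, below the median of all genes. These genes and Fos varied together over the same arrays, while between datasets the maps of Fos had r of 0.24 at most. Fos also had r = 0.02, 0.58 and 0.57 with the spread of ratios on the array in datasets 1, 2 and 3. The part of this spread in the likeness was not tested. The 3 genes were picked for r with Fos over means of these arrays, so their r within datasets is no separate support.

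Jun was closest to Snrk, a protein kinase (r = 0.52), Lrrc42 (0.51) and Pbx3, a homeodomain transcription factor (0.47), all lower than the likeness found for Egr1, Arc, Fos or Ier2. By dataset, these r values were 0.38, 0.43 and 0.44 for Snrk, 0.51, 0.60 and 0.09 for Lrrc42, and 0.42, 0.43 and -0.13 for Pbx3. The maps that ran most against Egr1 and Arc were those of Timp2, an inhibitor of matrix metalloproteinases (r = -0.84 and -0.82), and Vat1l (-0.84 and -0.87). Timp2 and Vat1l were picked here after their values were seen.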
